A study of Mus musculus with 12 samples.

Results

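Paneth cells release antimicrobial proteins and enzymes into the crypt lumen of the small intestine, and 10 genes for such secreted proteins other than the alpha-defensins were followed here through libraries of sorted intestinal stem cells (ISCs) from young and old mice. The 10 genes are the lysozymes Lyz1 and Lyz2, the ribonuclease Ang4, the lectins Itln1, Mptx1 and Mptx2, the protease Mmp7, and Habp2, Pla2g2a and Clps. They were chosen by name with earlier results of these data known, and all 10 of them were among the 54232 genes of the deposited count table and passed the filter on low counts that left 13368 genes. Each of the 12 libraries came from 1 mouse, with 3 libraries in each of 4 groups: SM6 at 2 months, SM6 at 22 months, Lgr5-GFP at 2 months and Lgr5-GFP at 22 months. The SM6 mice were wild-type C57/Bl6, and the Lgr5-GFP mice carried the Lgr5-EGFP-IRES-CreERT allele (so spelled in the labels, and CreERT2 in the methods of the study), which puts a green fluorescent reporter under control of the stem cell gene Lgr5. SM6 names a sort by surface markers, and the labels give that same sort (EPCAM+, CD44high, CD166+, EPHB2high, CD24med and GRP78low, without CD31 and CD45) for all of the libraries, while a legend of the study has the Lgr5-GFP cells sorted by fluorescence. Strain and isolation change together, so they cannot be told apart.

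Paneth cells sit between the ISCs at the crypt base, keep large secretory granules and discharge them upon bacterial signals. Besides defensins, the granules carry lysozyme, which cuts the peptidoglycan of bacterial cell walls, a microbicidal angiogenin, lectins that bind microbial sugars, and a phospholipase that attacks bacterial membranes. The metalloprotease matrilysin, the product of Mmp7, cuts the mouse pro-alpha-defensins into their active form. A sort for ISCs is meant to leave Paneth cells out.

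Both gene pairs of the set are close relatives that lie on the same chromosome, and the members of each pair differed widely in count or in pattern, so the sequences before their starts are shown. Lyz1 (ENSMUSG00000069515, GRCm38 chr10:117287797-117292868) and Lyz2 (ENSMUSG00000069516, chr10:117277331-117282321) are both on the minus strand, 5475 bases apart. Mptx1 (ENSMUSG00000026531, chr1:174330518-174332873, plus strand) and Mptx2 (ENSMUSG00000079180, chr1:173274382-173277777, minus strand) are 1052740 bases apart. The runs below are RefSeq sequence on GRCm38.p6 from 250 to 51 bases before the RefSeq start, which can differ from the GENCODE start given above, at chr10:117292919-117293118 for Lyz1, chr10:117282323-117282522 for Lyz2, chr1:174330268-174330467 for Mptx1 and chr1:173277807-173278006 for Mptx2, each on the strand of its gene. They are read 5′ to 3′ along the gene, and capitals mark bases that differ from the other gene of the pair or have no partner in their alignment.
Lyz1: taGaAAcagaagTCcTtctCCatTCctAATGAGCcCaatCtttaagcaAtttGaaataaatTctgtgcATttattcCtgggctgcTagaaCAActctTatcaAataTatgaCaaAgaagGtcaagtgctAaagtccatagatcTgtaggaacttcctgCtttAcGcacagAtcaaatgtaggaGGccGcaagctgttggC
Lyz2: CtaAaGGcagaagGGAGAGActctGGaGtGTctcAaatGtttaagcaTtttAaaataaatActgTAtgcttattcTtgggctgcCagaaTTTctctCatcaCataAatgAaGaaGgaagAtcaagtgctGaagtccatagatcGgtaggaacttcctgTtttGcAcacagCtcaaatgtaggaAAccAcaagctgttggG
Mptx1: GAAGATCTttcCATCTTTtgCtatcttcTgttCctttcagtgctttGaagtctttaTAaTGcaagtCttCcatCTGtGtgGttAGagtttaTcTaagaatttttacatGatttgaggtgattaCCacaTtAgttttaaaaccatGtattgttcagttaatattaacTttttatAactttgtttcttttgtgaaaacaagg
Mptx2: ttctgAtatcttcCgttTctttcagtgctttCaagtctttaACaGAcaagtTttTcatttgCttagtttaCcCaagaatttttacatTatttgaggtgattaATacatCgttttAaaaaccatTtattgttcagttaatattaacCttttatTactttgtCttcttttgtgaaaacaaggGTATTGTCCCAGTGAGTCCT

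Of the 200 bases of each run, 155 were shared between Lyz1 and Lyz2 and 158 between Mptx1 and Mptx2. The longest transcripts of the pairs were more alike, with 92.0% identity over 1317 aligned positions for the lysozymes and 91.9% over 801 positions for the pentraxins. A read was 72 bases long, and 80 of the stretches of that length in Lyz1 (6.71%) occurred unchanged in Lyz2, as did 79 in Mptx1 (10.9%) in Mptx2, so part of the reads of these pairs cannot be placed by sequence alone. Ang4 shared 8 such stretches with Ang5, and none were shared with another gene for the other members. The letters CTTTGA, the core of the motif of TCF and LEF factors that act in Wnt signalling, were searched on both strands of the 300-base windows from 250 bases before to 50 bases after each RefSeq start, which were given for 8 of the 10 genes. They occurred in the windows of Mptx1, 208 bases before the start, and of Mmp7, 5 bases after its first start, and in 16.0% of all 32851 windows. Clps and Pla2g2a had no window.

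The remaining positions on GRCm38 were chr14:51763878-51773590 for Ang4 (ENSMUSG00000060615), chr1:171518122-171535294 for Itln1 (ENSMUSG00000038209), chr9:7692090-7699585 for Mmp7 (ENSMUSG00000018623), chr19:56287137-56320822 for Habp2 (ENSMUSG00000025075), chr4:138831857-138835186 for Pla2g2a (ENSMUSG00000058908) and chr17:28558149-28560766 for Clps (ENSMUSG00000024225). Counts covered exons, and the counting strand was not given in the sources used here, so genes that overlap a member on the other strand could share its reads. Of such partners, Nrap, opposite Habp2, had 0 to 3 counts per library, and AV064505, opposite Mmp7, had 0 to 1. Pla2g5, opposite Pla2g2a, had 7 to 39. In old Lgr5-GFP libraries 1 to 3 Pla2g5 had 25, 27 and 15 counts, above the 16, 9 and 14 of Pla2g2a. In the young ones it had 24, 32 and 24, below the 615, 56 and 54 of Pla2g2a. Whether these 2 genes shared reads was not tested.

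The libraries held between 970472 and 3815425 counts (median 1424340). All 11 listed ISC markers, among them Lgr5, Ascl2 and Olfm4, were detected, with a summed level of 7624 to 8642 CPM in the old SM6 libraries, the lowest of the 4 groups, and 10130 to 14780 CPM in the others, where CPM is the count scaled to a common library total after correction by trimmed means (TMM). Most of this sum was Olfm4, with means of 10730 CPM in young SM6, 5995 in old SM6, 9983 in young Lgr5-GFP and 7960 in old Lgr5-GFP. Defensins, which define Paneth cells, were present in every library and made up 1.26% to 23.2% of its counts. Library 3 of the old SM6 mice and library 1 of the young Lgr5-GFP mice stood apart, with 23.1% and 23.2% of their counts in defensins, against at most 12.4% in the other libraries. Results that rest on these 2 libraries are given with and without them, and p-values measure the spread between 3 mice per group.

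Summed over the 10 genes, the secreted Paneth transcripts varied widely between mice of the same group. They made up 0.740%, 0.334% and 0.168% of the counts of the young SM6 libraries 1, 2 and 3, and 0.566%, 0.544% and 4.09% of those of the old SM6 libraries. In Lgr5-GFP mice the shares were 4.24%, 1.14% and 0.562% at 2 months and 0.273%, 0.294% and 0.374% at 22 months. Old Lgr5-GFP libraries thus lay close together and below the young ones of that strain, while the SM6 groups overlapped and 1 old SM6 library was far above the rest. The 95% Wilson interval, which covers counting error only, was 4.06% to 4.12% for the highest SM6 library and 0.161% to 0.176% for the lowest, so counting error was small beside the differences between mice. Lyz1 supplied 45.1% of all counts of the set and Itln1 33.5%. In bulk libraries, fewer cells of a type and less RNA per cell cannot be told apart.

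From library to library, the summed set followed the summed defensins. The set held 0.0898 to 0.133 counts per defensin count in 10 libraries, and 0.177 in library 3 of the old SM6 mice and 0.183 in library 1 of the young Lgr5-GFP mice. These 2 libraries were thus higher in the summed set relative to defensins too, although their defensin shares were already the highest. Lyz1, Ang4 and Itln1 were each highest there on this scale. Clps was not, with 3.89 and 5.27 counts per 1000 defensin counts, against 6.32 in old Lgr5-GFP library 1.

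**Figure D1:**
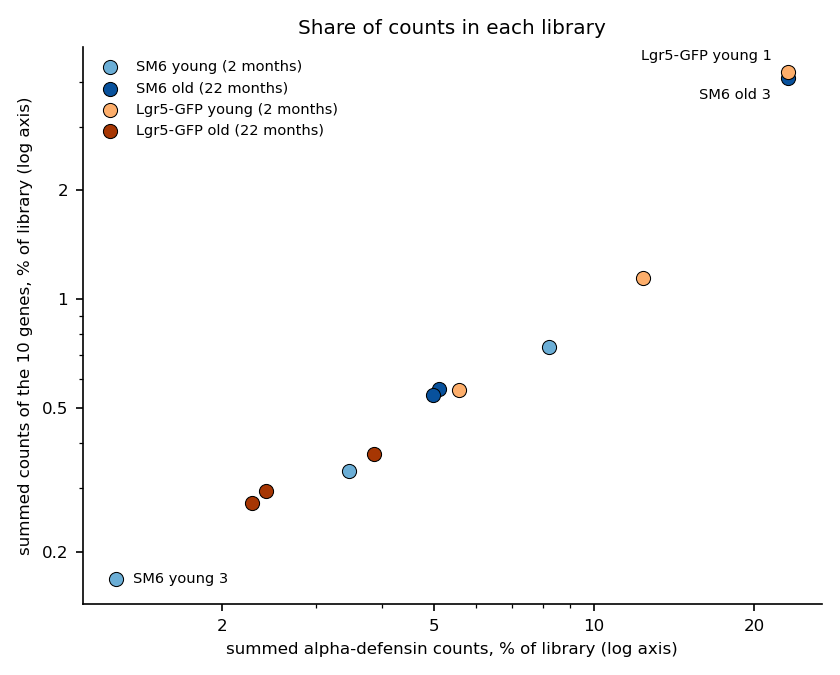
Each point is 1 of the 12 libraries, with the summed alpha-defensin counts on the x axis and the summed counts of the 10 secreted Paneth genes on the y axis, both in percent of the library's counts on log axes. The points follow a common line from SM6 young 3 (1.26% and 0.168%) to SM6 old 3 and Lgr5-GFP young 1 (23.1% and 4.09%, and 23.2% and 4.24%), and the 3 old Lgr5-GFP libraries lie in its lower part.

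Lyz1, the lysozyme typical of Paneth cells, had 3252, 1466 and 708 CPM in young SM6 libraries 1 to 3, and 2997, 2694 and 25464 CPM in the old ones. In Lgr5-GFP mice it had 21784, 4571 and 2317 CPM at 2 months and 1268, 1509 and 1930 CPM at 22 months. The SM6 groups overlapped, since 2 of the old libraries were below the highest young one, and the Lgr5-GFP groups did not, with every old library below every young one. The log2 difference between old and young was 2.52 (SE 0.71, adjusted p = 0.0608) in SM6 and -2.61 (SE 0.71, adjusted p = 0.119) in Lgr5-GFP by edgeR's quasi-likelihood test with Benjamini-Hochberg adjustment, so neither passed the threshold of 0.05. All adjusted p-values below come from this test over 13368 genes unless another is named.

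Lyz2, the lysozyme of macrophages and other myeloid cells, was near the limit of detection. It had 6, 1 and 2 counts in the young SM6 libraries and 1, 6 and 23 in the old ones, and 78, 6 and 10 in the young and 3, 5 and 1 in the old Lgr5-GFP libraries. Its highest counts fell in the 2 libraries with the most Lyz1, and in each library it amounted to 0.026% to 0.269% of the Lyz1 count. The log2 difference was 1.98 (SE 0.91, adjusted p = 0.343) in SM6 and -2.32 (SE 0.85, adjusted p = 0.311) in Lgr5-GFP. Of 13 macrophage and myeloid markers, 3 passed the filter and 2 were at 0 in every library, and their summed level was 14.4 to 18.2 CPM in young SM6, 22.4 to 34.4 in old SM6, 18.0 to 30.3 in young Lgr5-GFP and 18.7 to 23.2 in old Lgr5-GFP libraries. The defining markers Csf1r, C1qa and C1qb had 1 count each over all libraries, and most of the list's counts were Cd14 (263) and Itgam (87). Since Lyz1 and Lyz2 share stretches of read length, it was not tested whether the few Lyz2 counts stem from Lyz1 transcripts.

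Ang4, a microbicidal ribonuclease of the angiogenin family, had 507, 298 and 139 CPM in the young SM6 libraries and 510, 578 and 4889 CPM in the old ones. In Lgr5-GFP mice it had 4198, 849 and 342 CPM at 2 months and 186, 177 and 290 CPM at 22 months. Every old SM6 library was above every young one, though old library 1 exceeded young library 1 by little, and every old Lgr5-GFP library was below every young one. The log2 difference was 2.66 (SE 0.72, adjusted p = 0.0513) in SM6, just short of the threshold, and -3.05 (SE 0.74, adjusted p = 0.0683) in Lgr5-GFP.

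Itln1, intelectin 1, a lectin that binds sugars on microbes, had 2654, 1060 and 496 CPM in the young SM6 libraries and 1473, 1604 and 15962 CPM in the old ones. In Lgr5-GFP mice it had 17794, 4195 and 1810 CPM at 2 months and 748, 742 and 982 CPM at 22 months. Only old library 3 was outside the range of the young SM6 libraries, whereas the Lgr5-GFP groups were fully apart. The log2 difference was 2.18 (SE 0.73, adjusted p = 0.141) in SM6 and -3.27 (SE 0.76, adjusted p = 0.0537) in Lgr5-GFP.

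Mptx2 and Mptx1, the mucosal pentraxins, are secreted relatives of the serum pentraxins such as C-reactive protein. Mptx2 had 431, 154 and 73.7 CPM in the young SM6 libraries and 163, 186 and 2620 CPM in the old ones, so that the old libraries 1 and 2 lay within the young range and only library 3 above it. In Lgr5-GFP mice Mptx2 had 4639, 1501 and 500.4 CPM at 2 months and 77.3, 115 and 48.2 CPM at 22 months. The lowest young library was well above the highest old library, by ratio the widest gap of the set. With age, Mptx2 in Lgr5-GFP fell by 4.78 on the log2 scale (SE 0.89, adjusted p = 0.0106), and its log2 difference in SM6 was 2.17 (SE 0.78, adjusted p = 0.182). The call in Lgr5-GFP was lost without young library 1 (log2 -3.63, adjusted p = 0.0529), old library 1 (-4.75, 0.0876) or old library 3 (-4.53, 0.0688) of that isolation, and the difference in SM6 turned to -0.33 (adjusted p = 0.877) without old SM6 library 3.

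Mptx1 had far fewer counts and another pattern. It had 17.6, 4.43 and 5.78 CPM (29, 8 and 8 counts) in the young SM6 libraries and 47.5, 27.1 and 20.8 CPM (61, 40 and 26 counts) in the old ones. In Lgr5-GFP mice it had 20.2, 8.51 and 9.93 CPM (64, 9 and 24 counts) at 2 months and 14.0, 9.76 and 0.964 CPM (21, 12 and 1 counts) at 22 months. Its highest library was old SM6 library 1, not either of the 2 libraries that led the rest of the set, and the old SM6 libraries were all above the young ones while the Lgr5-GFP groups overlapped. The log2 difference was 1.76 (SE 0.51, adjusted p = 0.0669) in SM6 and -0.63 (SE 0.54, adjusted p = 0.779) in Lgr5-GFP. Leaving out SM6 young library 1 (log2 2.64, adjusted p = 0.0149), SM6 old library 3 (2.00, 0.0356) or Lgr5-GFP old library 3 (1.76, 0.0298) brought Mptx1 past the threshold in SM6.

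Mmp7, the matrilysin gene, had 161, 97.0 and 70.8 CPM in the young SM6 libraries and 139, 144 and 712 CPM in the old ones. In Lgr5-GFP mice it had 834, 277 and 121 CPM at 2 months and 57.3, 66.7 and 80.0 CPM at 22 months. The SM6 groups overlapped through young library 1, and the Lgr5-GFP groups did not. With age, Mmp7 in Lgr5-GFP fell by 2.61 on the log2 scale (SE 0.56, adjusted p = 0.0326), and its log2 difference in SM6 was 1.59 (SE 0.54, adjusted p = 0.143). The call in Lgr5-GFP was lost without young library 1 (log2 -1.53, adjusted p = 0.284), old library 1 (-2.50, 0.17), old library 2 (-2.60, 0.0799) or old library 3 (-2.74, 0.0944) of that isolation.

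Clps encodes colipase, best known as the cofactor of pancreatic lipase. It had 332, 135 and 41.2 CPM in the young SM6 libraries and 217, 191 and 1124 CPM in the old ones, and 1467, 411 and 221 CPM in the young and 131, 79.7 and 153 CPM in the old Lgr5-GFP libraries. The groups overlapped in SM6 and not in Lgr5-GFP, with log2 differences of 1.58 (SE 0.63, adjusted p = 0.251) and -2.54 (SE 0.66, adjusted p = 0.088). Of 16 pancreatic acinar genes, 10 were at 0 in every library, among them Cela2a, Cela3b and Cpb1, and the summed level of the list was 24.6 to 29.7 CPM in young SM6, 35.3 to 58.5 in old SM6, 26.9 to 35.9 in young Lgr5-GFP and 37.3 to 41.5 in old Lgr5-GFP libraries. Most of these counts were Cela1 (570), Pnliprp1 (92) and Ctrl (10), and Cela1, an elastase gene, rose with age in SM6 by a log2 difference of 1.03 (adjusted p = 0.0318).

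Pla2g2a, the secreted phospholipase of Paneth granules, is annotated as a polymorphic pseudogene because some inbred strains, C57BL/6 among them, carry a disrupted copy. It had 52, 25 and 14 counts in the young and 33, 25 and 236 in the old SM6 libraries, and 615, 56 and 54 in the young and 16, 9 and 14 in the old Lgr5-GFP libraries. Transcripts were thus counted in every library, with the groups overlapping in SM6 and apart in Lgr5-GFP. The log2 difference was 2.02 (SE 0.71, adjusted p = 0.163) in SM6 and -3.15 (SE 0.78, adjusted p = 0.075) in Lgr5-GFP. Habp2, a secreted serine protease that binds hyaluronan, had 19, 6 and 2 counts in the young and 7, 16 and 49 in the old SM6 libraries, and 190, 14 and 25 in the young and 5, 14 and 1 in the old Lgr5-GFP libraries. Its groups overlapped at both isolations, with log2 differences of 1.71 (SE 0.77, adjusted p = 0.332) in SM6 and -2.45 (SE 0.75, adjusted p = 0.204) in Lgr5-GFP.

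**Figure D2:**
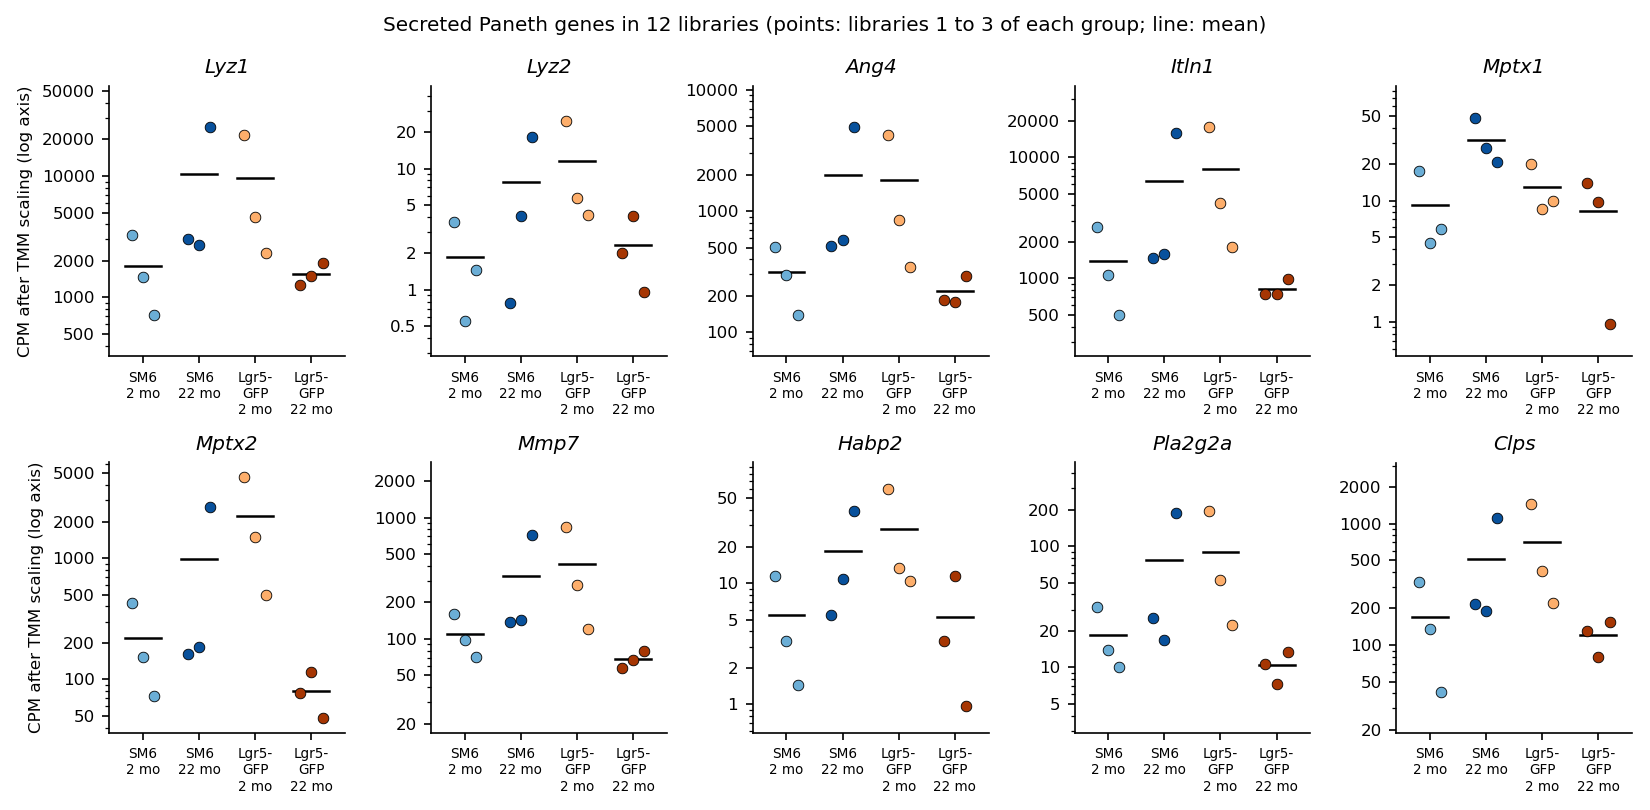
CPM after TMM scaling of the 10 genes, on log axes that span the same ratio in each panel, in the 3 libraries of each of the 4 groups (points in the order 1 to 3, lines at the means). In every panel but that of Mptx1, SM6 old 3 and Lgr5-GFP young 1 are the 2 highest points (for Lyz1 25464 and 21784 CPM), and in Mptx1 the highest is SM6 old 1 (47.5 CPM).

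Across the set, the comparison of old with young SM6 mice asked how ageing changes ISCs sorted from wild-type animals, and none of the 10 genes passed the test, where 2.42% of all 13368 tested genes did. The log2 differences were positive for all 10 genes, from 1.58 for Clps to 2.66 for Ang4, with a median of 2.00 against -0.01 over all tested genes. An unadjusted p under 0.05 was found for all 10, and for 1 without old SM6 library 3. The share of all genes at that unadjusted level was not counted, here or below. Limma voom with quality weights called 1 of them, Mptx1 (adjusted p = 0.0221), and DESeq2 called none, with its lowest adjusted p at 0.0521, again for Mptx1. Groups did not overlap for 2 genes, Ang4 and Mptx1, against 17.5% of all genes. Leaving out SM6 young library 1, SM6 old library 1 or 2, or Lgr5-GFP young library 1 or 3 brought 2 genes past the threshold, each time from among Lyz1, Ang4 and Mptx1, and leaving out Lgr5-GFP old library 2 or 3 brought 1, Ang4 or Mptx1. Without old SM6 library 3 the median was 0.40, Mptx1 was then the gene that passed, and Mptx2 turned negative.

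In Lgr5-GFP mice, 2 of the 10 genes fell with age, Mptx2 and Mmp7, against 0.471% of all tested genes called in either direction. All 10 log2 differences were negative, from -0.63 for Mptx1 to -4.78 for Mptx2, with a median of -2.61 against -0.03 over all genes. An unadjusted p under 0.05 was found for 9, and for 6 without young library 1. DESeq2 called Mptx2 (adjusted p = 0.0126) and not Mmp7 (adjusted p = 0.131), and voom called both (adjusted p = 0.00778 and 0.0496). For 8 genes, all but Mptx1 and Habp2, every old library was below every young one, where 14.6% of all genes had groups that did not overlap in either direction. Without young library 1 no gene passed (median -1.41), without old library 1 or 3 none and without old library 2 only Mptx2, while 4 passed without old SM6 library 1 or 2, and 7 without young library 3 or old SM6 library 3. The 2 isolations pointed in opposite directions, and the difference between their age effects is the direct test of that.

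The age difference in Lgr5-GFP minus that in SM6 was below zero for all 10 genes and passed the test for 7 of them, against 0.658% of all tested genes. It was -6.95 (SE 1.18, adjusted p = 0.00554) for Mptx2, -5.71 (SE 1.04, adjusted p = 0.00852) for Ang4, -4.20 (SE 0.78, adjusted p = 0.00989) for Mmp7 and -5.44 (SE 1.05, adjusted p = 0.0122) for Itln1. It was -5.13 (SE 1.01, adjusted p = 0.0128) for Lyz1, -5.17 (SE 1.06, adjusted p = 0.0163) for Pla2g2a and -4.12 (SE 0.91, adjusted p = 0.0298) for Clps. Lyz2 (-4.31, adjusted p = 0.156), Habp2 (-4.16, adjusted p = 0.0899) and Mptx1 (-2.398, adjusted p = 0.217) did not pass. The test called genes of other lists as well, and those named here had the same direction. They were 11 of 15 tested alpha-defensins, among them Defa29 (-6.23, adjusted p = 0.0062). They were also 3 of 7 goblet markers (Muc2, Spink4 and Agr2) and 5 of 8 enterocyte markers (Lct, Apoa1, Alpi, Sis and Apoa4). Reg3g (-4.13, adjusted p = 0.00124) and Reg3b (-3.58, adjusted p = 0.00554) passed too, so the call was not particular to the secreted Paneth genes. Among the members, Ang4, Mptx2 and Mmp7 passed also whichever of the 12 libraries was left out, and by DESeq2 and voom, while Lyz1 and Itln1 lost the call without SM6 young library 2 (-4.995 and -5.28) or Lgr5-GFP young library 1 (-3.66 and -4.04). Pla2g2a and Clps lost it without either of these, and also without SM6 young library 3, SM6 old library 3 or Lgr5-GFP old library 1 or 2, Clps without Lgr5-GFP old library 3 too, with adjusted p up to 0.101 and 0.149. Over all libraries left out in turn the difference stayed at -3.33 or lower for Pla2g2a and -2.80 or lower for Clps. With both highest libraries left out together, where 0.458% of all genes passed, 3 members kept the call, Mptx2 (-3.30, adjusted p = 0.0125), Ang4 (-2.24, adjusted p = 0.0301) and Mmp7 (-1.90, adjusted p = 0.0324). Without these libraries 1 of the 11 defensins kept it, Defa29 (-2.90, adjusted p = 0.0249), as did the 3 goblet markers, the 5 enterocyte markers, Reg3g and Reg3b.

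Averaged over both isolations, the age difference was small for most members and 0 of the 10 genes passed, against 2.66% of all tested genes. The median was -0.42, only Mptx1 had a positive value (0.57, SE 0.38), and Mptx2 had the lowest (-1.31, SE 0.55, adjusted p = 0.286), the only member with an unadjusted p under 0.05. DESeq2 and voom called 0 of the 10 too. Without old SM6 library 3, 3 genes passed, Itln1, Mptx2 and Mmp7.

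The comparison of Lgr5-GFP with SM6 mice of the same age uses the same libraries again, so it is not independent of the age comparisons. At 2 months none of the 10 genes passed, against 0.0898% of all tested genes. The log2 differences ran from 0.54 for Mptx1 to 3.33 for Mptx2, with a median of 2.396. An unadjusted p under 0.05 was found for 9 genes, and for 1 without young Lgr5-GFP library 1. DESeq2 called 0 of the 10 and voom called Mptx2. Groups did not overlap for Mptx2 and Lyz2, both higher in Lgr5-GFP, against 13.7% of all genes. Without old SM6 library 3, which is in neither of the groups compared, 6 genes passed.

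At 22 months 2 genes passed, both lower in Lgr5-GFP, against 0.718% of all tested genes. The log2 difference was -3.20 (SE 0.75, adjusted p = 0.0403) for Ang4 and -3.62 (SE 0.85, adjusted p = 0.041) for Mptx2, and the median over the set was -2.51. For 8 genes, all but Lyz2 and Habp2, every Lgr5-GFP library was below every SM6 library, where 13.5% of all genes had groups apart. Neither DESeq2 nor voom called any member, and without old SM6 library 3 the values were -1.31 (adjusted p = 0.45) for Ang4 and -1.10 (adjusted p = 0.584) for Mptx2. Ang4 and Mptx2 also lost the call at folds about as large without SM6 young library 2 (-3.20 and -3.62, adjusted p = 0.0526 and 0.0507) or any 1 of the old Lgr5-GFP libraries (-3.45 to -3.07 and -3.96 to -3.37, adjusted p up to 0.193 and 0.195), and Mptx2 without Lgr5-GFP young library 2 (-3.62, adjusted p = 0.0502). Without SM6 old library 1 or 2 or Lgr5-GFP young library 1, 5 or 6 genes passed, and without Lgr5-GFP young library 3, 4 did. Markers of other cells were lower in Lgr5-GFP in the same comparison. They were 6 of 7 goblet markers (Agr2, log2 difference -1.92, adjusted p = 1.17e-05), 5 of 8 enterocyte markers and 5 of 7 enteroendocrine markers (Sct, -3.24, adjusted p = 3.68e-06). Without old SM6 library 3 all of these but Gcg and Cck passed.

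Relative to the defensins of the same library, the ages overlapped in both isolations for 9 of the 10 members. Clps held 3.20 to 6.32 counts per 1000 defensin counts over all 12 libraries, a ratio of 1.97 between highest and lowest, and Lyz1 held 35.6 to 88.2, Itln1 27.2 to 63.9, Ang4 6.15 to 16.9, Pla2g2a 0.328 to 0.871 and Mmp7 1.95 to 6.10. Lyz2 and Habp2, which had few counts, differed 11.8 and 19.1 times between highest and lowest. For Mptx1 the ratio was 0.943 in old SM6 library 1, 0.072 and 0.0724 in the 2 libraries richest in defensins and 0.0663 in young Lgr5-GFP library 2. It was lowest, at 0.0267, in old Lgr5-GFP library 3, from a single Mptx1 count, and the highest was 35.3 times the lowest with this library and 14.2 times without it.

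Mptx2 held 5.23, 4.60 and 6.35 counts per 1000 defensin counts in the young SM6 libraries, 3.23, 3.73 and 9.08 in the old SM6 libraries, 16.6, 11.7 and 9.43 in the young Lgr5-GFP libraries and 3.72, 5.13 and 1.34 in the old Lgr5-GFP libraries. The young Lgr5-GFP libraries were all above the other libraries, and the old Lgr5-GFP libraries lay in and below the range of SM6. The geometric means in Lgr5-GFP were 12.2 at 2 months and 2.95 at 22 months, a log2 ratio of -2.06. Among the 10 members in each of the 2 isolations, the ages did not overlap on this scale for Mptx2 in Lgr5-GFP and overlapped in the other cases. Over all tested genes, the ages did not overlap on it for 8.03% in SM6 and 65.6% in Lgr5-GFP. In Lgr5-GFP the defensins themselves were lower in the old libraries, and this count of the members is a description.

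**Figure D3:**
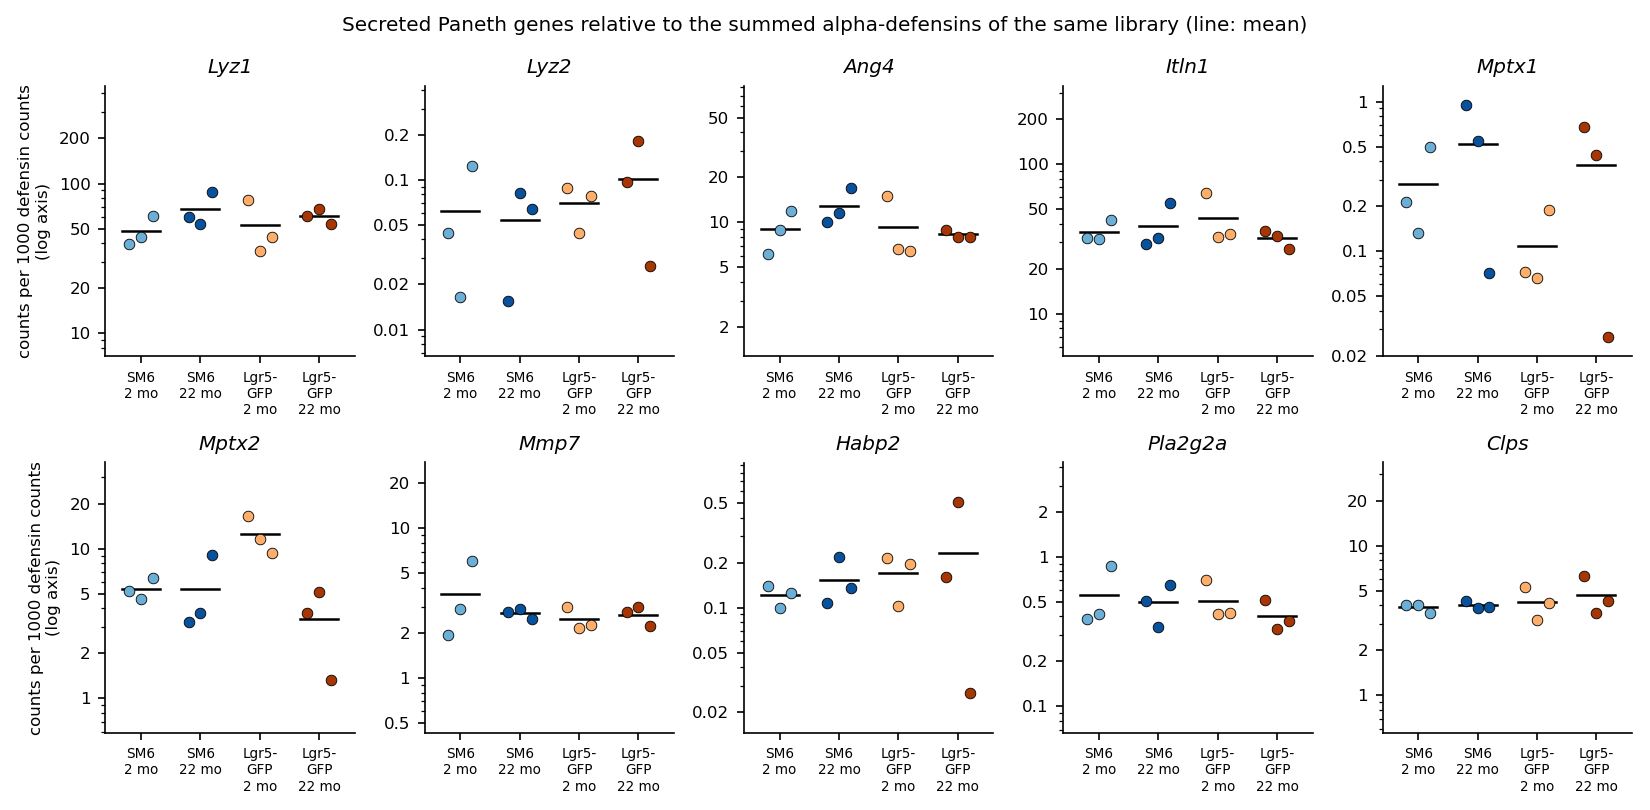
Counts of each gene per 1000 summed alpha-defensin counts of the same library, on log axes that span the same ratio in each panel, for the 4 groups of 3 libraries (lines at the means). Clps stays within 3.20 to 6.32 in all libraries, Mptx2 is 9.43 to 16.6 in young and 1.34 to 5.13 in old Lgr5-GFP libraries, and Mptx1 scatters over a ratio of 35.3, or 14.2 without Lgr5-GFP old 3, which had 1 count.

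The same question was put to the fit across all genes by adding the log2 defensin level of each library as a covariate, a choice made after the values were seen. In Lgr5-GFP the ages shared no defensin level, with 2.27% to 3.86% of counts at 22 months and 5.57% to 23.2% at 2 months. The values there come from the fitted slope, so they cannot show the age difference at an equal level. The same holds between strains at 22 months, where SM6 had 4.98% to 23.1%. In this fit the age difference in SM6 was 0.29 (SE 0.25) for Lyz1, 0.30 (SE 0.30) for Ang4, -0.17 (SE 0.24) for Itln1 and -0.01 (SE 0.22) for Clps. In Lgr5-GFP it was 0.46 (SE 0.28) for Lyz1, 0.16 (SE 0.33) for Ang4, -0.04 (SE 0.27) for Itln1, -0.35 (SE 0.31) for Mmp7 and 0.25 (SE 0.26) for Clps. None of these passed, where 2.17% of all genes did in SM6 and 0.247% in Lgr5-GFP, and the median over the set was 0.15 in SM6 and 0.06 in Lgr5-GFP. Mptx1 kept a difference of 1.65 (SE 0.52, adjusted p = 0.104) in SM6. Mptx2 had -1.32 (SE 0.39, adjusted p = 0.22) in Lgr5-GFP and -0.43 (SE 0.36, adjusted p = 0.701) in SM6, and averaged over both isolations its age difference was -0.87 (SE 0.21, adjusted p = 0.0194), where 2.77% of all genes passed. The difference between the age effects passed for no member in this fit, and for 0.239% of all genes (Mptx2 -0.88, adjusted p = 0.792, Ang4 -0.15, adjusted p = 0.983), with 1 member at an unadjusted p under 0.05 there and in each isolation. Between strains it called 0 members at 2 months, against 0.127% of all genes, and 0 at 22 months, against 0.628%.

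Without both highest libraries, old SM6 library 3 and young Lgr5-GFP library 1, the level of Mptx2 in Lgr5-GFP fell by 3.62 on the log2 scale with age (SE 0.46, adjusted p = 0.000219), and its value in SM6 was -0.33 (SE 0.46, adjusted p = 0.827). Itln1 (-1.86, adjusted p = 0.0182) and Mmp7 (-1.53, adjusted p = 0.0139) fell as well in Lgr5-GFP, where 0.606% of all genes passed. In SM6, where 3.29% did, Mptx1 rose by a log2 difference of 2.00 (SE 0.51, adjusted p = 0.0259), and the median of the set was 0.39. Between strains at 2 months Mptx2 was higher in Lgr5-GFP by a log2 difference of 2.20 (SE 0.43, adjusted p = 0.0239, against 0.155% of all genes called). At 22 months 0 members passed, against 0.885%, with 7 at an unadjusted p under 0.05.

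**Figure D4:**
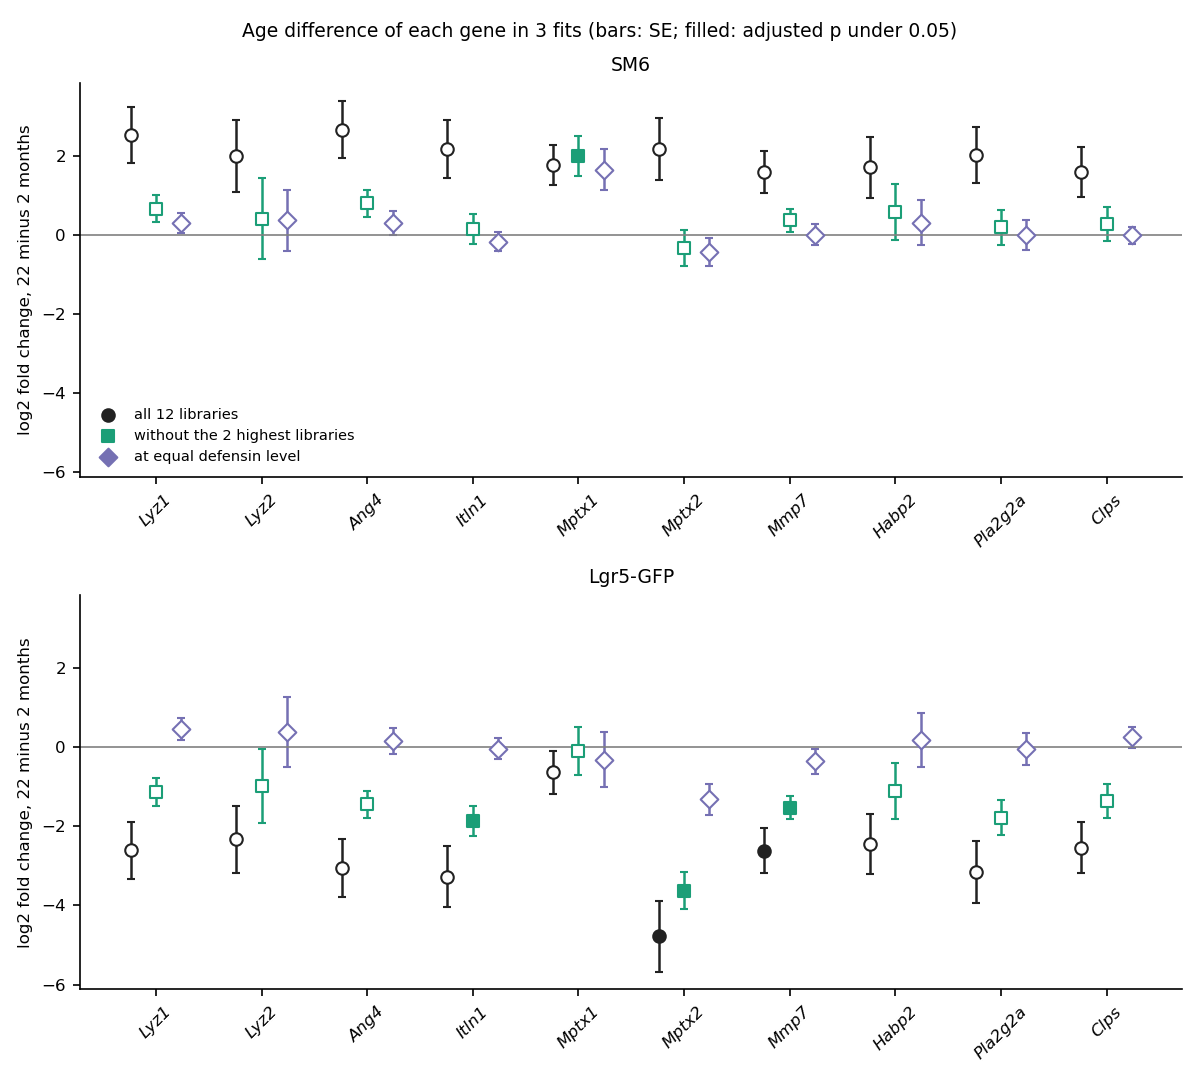
Log2 difference between 22 and 2 months of each gene in SM6 (top) and Lgr5-GFP (bottom), with SE bars, from the fit of all 12 libraries (circles), without the 2 highest libraries (squares) and with the defensin level as covariate (diamonds), and filled symbols pass the adjusted threshold of 0.05. In SM6 the values of all genes but Mptx1 move towards zero in the other 2 fits and that of Mptx2 turns negative (2.17, -0.33 and -0.43). With the covariate those of Itln1 (-0.17), Pla2g2a (-0.0106) and Clps (-0.0131) turn negative in SM6 too. In Lgr5-GFP Mptx2 is the lowest in each fit (-4.78, -3.62 and -1.32).

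Over the 12 libraries, Pearson's r between log2(CPM + 1) of a member and of the summed defensins was 0.984 for Clps, 0.983 for Itln1, 0.968 for Lyz1, 0.962 for Ang4, 0.959 for Mmp7, 0.958 for Pla2g2a and 0.929 for Mptx2, then 0.849 for Habp2, 0.804 for Lyz2 and 0.39 for Mptx1. Without the 2 libraries farthest from the median defensin level, r was 0.966 for Clps, 0.833 for Mptx2, 0.644 for Habp2, 0.458 for Lyz2 and 0.262 for Mptx1, and 0.917 to 0.987 for the others, so that the values of Lyz2 and Habp2 rest in part on those libraries. The points share library, mouse and total, and these values are descriptions of 12 libraries. Among the members, the 36 pairs without Mptx1 had r from 0.80 to 0.989 with a median of 0.931, and the 9 pairs with Mptx1 had 0.383 to 0.588 with a median of 0.415. Mptx1 and Mptx2, alike in sequence, were in the lower group and Lyz1 and Lyz2 (r = 0.857) in the higher one, though Lyz2 and Mptx1 had few counts.

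The genes whose pattern over the 12 libraries was most like the mean of the standardised members were Defa29 (r = 0.971), AY761184, Defa3, Gm14851, Gm15292, Defa24, Defa17, Gm35164, Bhlha15 and Defa26 (r = 0.952). Of these 10 genes 5 are alpha-defensins by name, as are 14 of the closest 30. Bhlha15 (r = 0.955) encodes Mist1, a transcription factor of secretory cells, and had 1 to 91 counts per library, the most in young Lgr5-GFP library 1.

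Of the 22 alpha-defensin genes 5 were at 0 in every library and 15 were tested, with a median age difference of 1.85 for SM6 and of -3.10 for Lgr5-GFP. Among those tested, Defa21 (log2 3.24, adjusted p = 0.0285) and Defa22 (3.12, adjusted p = 0.0471) rose in SM6 with age, and Defa29 (-3.72, adjusted p = 0.0326), Defa3 (-3.42, adjusted p = 0.0326) and Defa17 (-2.80, adjusted p = 0.0449) fell in Lgr5-GFP. Without old SM6 library 3 neither Defa21 (1.28, adjusted p = 0.381) nor Defa22 (1.29, adjusted p = 0.44) passed in SM6. Without young Lgr5-GFP library 1 none of Defa29 (-2.19, adjusted p = 0.269), Defa3 (-2.39, adjusted p = 0.187) and Defa17 (-2.02, adjusted p = 0.24) passed in Lgr5-GFP, and without both libraries these 3 passed (adjusted p = 0.0182, 0.0138 and 0.0323) while Defa21 and Defa22 did not (0.0564 and 0.0801). The regulators of Paneth cells gave a mixed picture. Of 6 regulators, Atoh1, which sets the secretory fate (log2 1.15, adjusted p = 0.0327), and Xbp1, a factor of the secretory stress response (0.70, adjusted p = 0.0272), rose in SM6, while Sox9, needed for Paneth cells and also present in ISCs, fell by 1.01 (adjusted p = 0.00358). Without old SM6 library 3, Atoh1 (1.13, adjusted p = 0.0593) and Xbp1 (0.56, adjusted p = 0.101) no longer passed and Sox9 did, and without both highest libraries Atoh1 passed (1.13, adjusted p = 0.0379) and Xbp1 did not (0.56, adjusted p = 0.0937). None of the 6 passed in Lgr5-GFP, where 3 had an unadjusted p under 0.05, and Xbp1 was the regulator whose age effects differed between isolations (-1.20, adjusted p = 0.0155, and -1.09, adjusted p = 0.0567, without both highest libraries).

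Genes of the wider Paneth programme made up 3 further lists, whose difference from the members was not tested. Of 5 niche ligands that Paneth cells offer to ISCs, such as Wnt3 and Dll4, 4 were tested, and of 8 genes of granule packaging and autophagy, such as Atg16l1, 6 were tested, and 0 passed in each comparison, where 0.0898% to 2.66% of all genes did, with medians of the age difference between -0.22 and -0.03 and at most 1 gene of each list with an unadjusted p under 0.05. Of 26 family relatives of the members, such as the angiogenin Ang, Rnase4 and the phospholipase Pla2g5, 13 were tested and 0 passed in any comparison, with a median age difference of 0.66 for SM6 and of -0.57 for Lgr5-GFP and with 2 and 4 genes at an unadjusted p under 0.05. For the difference of the age effects and between strains at 22 months it was 5 genes each. Among 7 antimicrobial genes of other epithelial cells, Reg3g (-2.77, adjusted p = 0.00275) and Reg3b (-2.23, adjusted p = 0.0192), C-type lectins made mainly by enterocytes, fell with age in Lgr5-GFP as Mptx2 and Mmp7 did, and Zg16, a lectin of goblet cells, rose in SM6 (1.79, adjusted p = 0.0219).

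Markers of other epithelial cells differed between the groups too. The 7 goblet markers had a summed level of 5705 to 9116 CPM in young SM6, 17310 to 18220 in old SM6, 5298 to 13740 in young Lgr5-GFP and 3153 to 5495 in old Lgr5-GFP libraries, and 5 of them, among them Agr2, Tff3 and Muc2, rose with age in SM6, where Spink4 was at 0.99 (adjusted p = 0.134) without old SM6 library 3 and at 1.00 (adjusted p = 0.00816) without both highest libraries. Of the 8 enterocyte markers, 4 rose in SM6, among them Sis, Alpi and Fabp1, and 3 fell in Lgr5-GFP, Apoa4, Lct and Apoa1, at summed levels of 1350 to 1558, 2087 to 8591, 1208 to 2469 and 1514 to 11340 CPM in the same order of groups. Without young Lgr5-GFP library 1, Lct and Apoa1 had like folds (-2.28 and -1.49, against -2.24 and -1.48) at adjusted p = 0.0731 and 0.0819, and both passed without the 2 highest libraries (0.0182 and 0.00363). Fabp1 and Fabp2, which bind fatty acids, did not pass in Lgr5-GFP. Their mean levels there were 661 (SD 376) and 636 (SD 94.6) CPM at 2 months and 3988 (SD 5085) and 842 (SD 357) CPM at 22 months. On average over both isolations Fabp1 (2.62, adjusted p = 0.00173) and Fabp2 (0.73, adjusted p = 0.0286) rose with age. Fabp2 was at 0.73 without young Lgr5-GFP library 1 too (adjusted p = 0.0542), and at 0.89 without both highest libraries (adjusted p = 0.00111). The 7 enteroendocrine markers had 414 to 470, 364 to 868, 128 to 252 and 64.6 to 149 CPM. Among them Sct, the secretin gene, rose with age in SM6 (1.28, adjusted p = 0.0106). Its age effects differed between isolations (-1.998, adjusted p = 0.0298). These values were 1.02 and -1.73 without old SM6 library 3 (adjusted p = 0.052 and 0.0684), and 1.02 and -1.17 without both highest libraries (adjusted p = 0.0149 and 0.295). The 5 tuft markers had 2.77 to 8.50, 0.779 to 17.6, 2.84 to 40.0 and 2.89 to 10.6 CPM, and the 6 markers of T and B cells had at most 7.21 CPM. Unlike the summed members, the summed goblet list was at a like level in the 3 old SM6 libraries. Single goblet markers varied there, Zg16 (mean 1358 CPM, SD 931) more than Muc2 (730, SD 166). The part of the listed cell types in the age differences of the members was not tested. Of the 11 ISC markers, Olfm4 (-0.84, adjusted p = 0.00342) and Znrf3 (-1.01, adjusted p = 0.0115) fell with age in SM6 and none passed in Lgr5-GFP, where 2 had an unadjusted p under 0.05.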

How the data were processed

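Polyadenylated RNA of sorted cells from 12 individual female mice was sequenced with a 3′-biased approach. The authors aligned reads to GRCm38 with STAR 2.4.2a (per the labels) and deposited raw read counts over GENCODE exons from featureCounts, unscaled; whether reads with a shared molecular identifier were collapsed and which strand was counted are not given in the sources used here. Counts were analysed with R 4.3.3, edgeR 4.0.16, limma 3.58.1 and DESeq2 1.42.0. Genes with more than 5 reads and at least 1 CPM in at least 1 library were kept (13368), TMM-scaled, and tested by quasi-likelihood with 4 group means over 12 libraries and Benjamini-Hochberg adjustment, called at 0.05. The test was run on simulated counts, in which genes varied independently and no library stood apart. That check therefore says nothing on libraries that stand apart, as 2 did here. The members and gene lists were chosen with earlier results of these data known. All 10 members are named, and of the other lists only part of the called genes. Positions are from GENCODE vM21 on GRCm38, and promoter sequences from RefSeq. Alternatives were other scalings, filters, tools, sample sets and a replicate block.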

Additional observations from a re-analysis of the deposited data

Results flagged for a closer look

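The difference between the 2 isolations in the effect of age passed the test for 7 of the 10 secreted Paneth genes, as the age difference in Lgr5-GFP minus that in SM6 on the log2 scale, against 0.658% of all tested genes. It was -6.95 for Mptx2, -5.71 for Ang4, -5.44 for Itln1, -5.17 for Pla2g2a, -5.13 for Lyz1, -4.20 for Mmp7 and -4.12 for Clps. Strain and isolation change together in these groups and cannot be told apart. With the defensin level of each library in the fit, the median of this difference over the members was -0.09. Young and old Lgr5-GFP libraries shared no defensin level, so that value rests on the fitted slope. Without the 2 libraries richest in defensins the median was -1.94. DESeq2, voom and the fit without these 2 libraries each called 3 members, Ang4, Mptx2 and Mmp7, library totals alone and the replicate block 8 each, no filter on low counts 10, and the fit with the defensin level called 0, with 1 at an unadjusted p under 0.05. The same test called 11 of 15 alpha-defensins, 3 of 7 goblet markers, 5 of 8 enterocyte markers, and Reg3g and Reg3b, all in the same direction.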

How the results depend on the processing

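The members that passed the test in SM6, Lgr5-GFP, the difference of age effects, at 2 months and at 22 months numbered 0, 2, 7, 0 and 2 in the analysis reported. With library totals alone they were 3, 7, 8, 1 and 6, with no filter beyond 1 count 9, 9, 10, 9 and 9 (and 4 in the average over isolations), with DESeq2 0, 1, 3, 0 and 0, and with voom 1, 2, 3, 1 and 0. The shares of all tested genes called were 2.42%, 0.471%, 0.658%, 0.0898% and 0.718% in the analysis reported, 3.29%, 0.726%, 0.845%, 0.187% and 0.8% with totals alone, and 2.55%, 1.16%, 0.948%, 0.529% and 0.965% of 23621 genes (2.5% in the average) with no filter. In the other alternatives, leaving out 1 library aside, they were 2.17% to 3.45%, 0.247% to 0.63%, 0.239% to 0.778%, 0.0823% to 0.165% and 0.628% to 0.913%. With no filter the SE of Ang4 at 22 months was 0.193, against 0.746 in the analysis reported. Totals alone moved the median of all genes by -0.154, 0.198, 0.349, -0.14 and 0.206 in these comparisons, and gave 59 higher and 38 lower genes in Lgr5-GFP against 25 and 38. With only the groups compared, 3, 7, 1 and 7 passed in the pairwise comparisons. Scaling without members and defensins left each count at its value. Without the 2 highest libraries (chosen after seeing the data) 1, 3, 3, 1 and 0 passed, and 1 in the average, with medians of 0.39, -1.41, -1.94, 0.96 and -0.95. With the defensin level as covariate (also chosen afterwards) 0 passed in these 5 comparisons and 1 in the average, with medians of 0.149, 0.059, -0.0916, 0.021 and -0.0109. The cause of these changes was not tested.

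Leaving out 1 library at a time gave 0 to 2 members in SM6 (medians 0.40 to 2.87), 0 to 7 in Lgr5-GFP (-3.06 to -1.41), 0 to 3 in the average (-1.12 to 0.23), 3 to 8 for the difference (-5.54 to -3.15), 0 to 6 at 2 months (0.93 to 3.08) and 0 to 6 at 22 months (-2.92 to -0.95). The shares of all genes called then were 1.09% to 3.03%, 0.195% to 0.848%, 1.71% to 3.54%, 0.317% to 0.744%, 0.0449% to 0.293% and 0.3% to 0.927% in the same order. Directions of single members outside the average held in 988 of 990 values without the defensin covariate, and Mptx2 in SM6, at -0.33 to 3.11 when 1 library was left out, turned to -0.33 without old library 3 and without the 2 highest libraries. With the covariate, 23 of 50 values outside the average turned, and none of these passed. They were Itln1 (-0.17), Mptx2 (-0.43), Pla2g2a (-0.0106) and Clps (-0.0131) in SM6, Lyz1 (0.46), Lyz2 (0.39), Ang4 (0.16), Habp2 (0.17) and Clps (0.25) in Lgr5-GFP, and Lyz1 (0.17), Lyz2 (0.0163), Itln1 (0.14) and Clps (0.26) for the difference. At 2 months they were Lyz1 (-0.11), Ang4 (-0.23), Itln1 (-0.0742), Mmp7 (-0.00478) and Pla2g2a (-0.0373), and at 22 months Lyz1 (0.058), Lyz2 (0.74), Itln1 (0.0608), Habp2 (0.43) and Clps (0.30). In the average Lyz1 (0.38), Lyz2 (0.38), Ang4 (0.23), Habp2 (0.24) and Clps (0.12) turned with it. In the average, where values were near zero, leaving out 1 library at a time gave -0.97 to 0.69 for Lyz1, -0.95 to 0.50 for Lyz2, -1.13 to 0.61 for Ang4, -1.56 to 0.16 for Itln1, -1.12 to 0.0293 for Mmp7, -0.95 to 0.30 for Habp2, -1.48 to 0.13 for Pla2g2a and -1.13 to 0.11 for Clps.

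Mice were not treated as paired by replicate number, and the deviations of same-numbered libraries correlated at -0.0436 to 0.0482. Whether same-numbered mice were handled together cannot be known from this check. With a replicate block, 1, 2, 8, 0 and 1 members passed. At 22 months this was Mptx1 (adjusted p = 0.0158), and not Ang4 (0.052) or Mptx2 (0.0927). Lyz1 in the average turned to 0.0751. Depth limits Lyz2, Mptx1 and Habp2, which had as few as 1 count in a library.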
